A study of Schizosaccharomyces pombe with 9 samples.

Results

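The messenger RNAs (mRNAs) of the large ribosomal subunit proteins of fission yeast, Schizosaccharomyces pombe, were examined in a PAR-CLIP experiment on the histone deacetylase Clr3. Members were the protein-coding genes whose symbol starts with rpl and a digit, together with rpp0 and the rpp101 to rpp203 genes, which gave 83 of 5113 annotated protein-coding genes. All positions called on the sense strand of these genes were used. PAR-CLIP (photoactivatable ribonucleoside-enhanced crosslinking and immunoprecipitation) marks the places where a protein can be crosslinked to RNA. Cells incorporate 4-thiouracil, long-wave ultraviolet light crosslinks it to bound protein, and reverse transcription then reads the crosslinked base as C, so that a T-to-C conversion in the reads marks the site.

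There were 2 crosslinked libraries and 1 control library without crosslinking. All came from h+ cells with clr3-3HA-TAP::kan MX and imr1R(NcoI)::ura4+ that also carried leu1-32, ade6-M216 and ura4-delta18, grown at 30 °C with 4% glucose, 10 mg/l uracil and 100 µM 4-thiouracil, to which 900 µM was added for the last 4 h. The crosslinked cells received 12 J/cm2 at 365 nm, and Clr3 was recovered through its tag on antibody-coated beads before RNase T1, an enzyme that cleaves RNA after G, shortened the bound RNA. The control was so named by its title and the study design, although its remaining labels match those of the crosslinked samples and mention irradiation. No library from untagged cells was used here, so RNA that binds the beads and RNA bound to Clr3 cannot be told apart. A further 6 RNA-seq samples, 3 wild type and 3 seb1-1, were not analysed here.

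The large subunit carries the peptidyl transferase centre, the exit tunnel of the growing peptide and the stalk that recruits translation factors. Its proteins are made from some of the most abundant mRNAs of a growing yeast cell. Many are imported into the nucleolus and are assembled there on ribosomal RNA. In fission yeast most large subunit proteins are encoded by duplicated genes that make nearly the same protein. Here 70 members fell into 33 duplicated families, 29 pairs and 4 triplets, and 13 members had no second copy. An intron was annotated in 44 members. Clr3 itself is a histone deacetylase of the SHREC complex, known for silencing heterochromatin.

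For each called position the tables give the number of converted reads, here called conversions, and all reads that cover the position. They also give an occupancy, a ratio of conversions to some whole number, which is called the reference depth below. At each position called in both crosslinked libraries this number was identical. Which library supplied it is not stated in the sources used here. The crosslinked libraries shared 9 positions in 7 members. Their surroundings are shown because these are the only large subunit sites that both libraries called at the same base. Each stretch of 21 nt is the mRNA-sense strand of the RefSeq assembly ASM294v3, written 5′ to 3′, with the converted T in capitals.
rpl13, codon 188, I:1711777 plus strand: atgctcgttaTgccggtgctc
rpl13, 3′ UTR, I:1711856 plus strand: ctgtagttaaTggatcaggca
rpl1702, codon 100, III:482499 minus strand: atgccgaggcTaatgctgaag
rpl2101, codon 58, II:2503577 minus strand: agtattaccaTggtaagactg
rpl3401, codon 1, I:4093766 minus strand: ctaacaaaaaTggctcaacga
rpl4302, codon 11, II:1513707 minus strand: ttggtgtcacTggcaagtacg
rpl501, codon 119, I:3411307 plus strand: ctgacaaataTgagggtgtca
rpl801, codon 86, I:4251162 minus strand: actggccaatTcgtctactgc
rpl801, codon 39, I:4251304 minus strand: acgtcacggaTacattcgtgg
The converted T lay in an ATG trinucleotide at 5 of the 9 positions, which were those of rpl13, rpl2101, rpl3401 and rpl501.

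Sites also fell on the T of the ATG start codon itself in 6 members. This set was chosen after its values were seen, and it is shown because these sites had low reference depths, as described below. Besides rpl3401, printed above, they were the following.
rpl2802: gacatcaaaaTgccaactcac
rpl3703: gtttcaaaaaTgactaagggt
rpl4101: ataaccacaaTgcgtgataag
rpl4102: actgccaagaTgcgtgataaa
rpl8: ccaccaaaaaTggtaagtgac
In rpl8 the annotated exon ends with the ATG, so the letters printed after it are intron and not part of the spliced mRNA. The rpl2802, rpl3401, rpl3703 and rpl4101 positions were called in crosslinked replicate 1. Those of rpl3401, rpl4102 and rpl8 were called in crosslinked replicate 2, and the control had 0. This amounted to 4.82% and 3.61% of members, beside 0.45% and 0.469% of all protein-coding genes with a call at that T. Among small subunit ribosomal protein genes it was 3.64% and 1.82%. The start codon T also made up 0.708% of the members' coding T positions, beside 0.235% over all protein-coding genes. Of coding sites it held 2.92% and 2.65% in the members, beside 0.514% and 0.713%.

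Most large subunit mRNAs had a called site in each crosslinked library, at few positions and with few conversions. Crosslinked replicate 1 had 169 sites with 554 conversions and crosslinked replicate 2 had 138 sites with 332 conversions. The control had 5 sites with 10 conversions. The members held 2.99% of all nuclear conversions in replicate 1 (95% Wilson interval 2.75 to 3.24) and 3.11% in replicate 2 (2.80 to 3.46), a mean of 3.05% ± 0.0849 (SD, n = 2). In the control they held 1.13% (0.615 to 2.07). Both crosslinked values lay above the upper bound of the control interval, and the crosslinked intervals overlapped. These intervals cover counting error only, since reads were not counted as molecules. All protein-coding genes together held 54.8% and 57.3% of nuclear conversions in replicates 1 and 2, and 18.5% in the control. The higher share with crosslinking was thus not particular to the members. Of the conversions in protein-coding genes, the members had 554 of 10153, 332 of 6110 and, in the control, 10 of 164. With 2 libraries against 1 no exact permutation test can give a p below 1 in 3, so the groups were not tested. Only called positions are listed, so the depth of each library is unknown. In bulk samples, fewer expressing cells and less RNA per cell cannot be told apart.

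A site was called in 65 of 83 members in replicate 1 (78.3%), beside 52.4% of all protein-coding genes. In replicate 2 it was 64 members (77.1%), beside 43.6%. Both libraries had a site in 50 members (60.2%, 95% interval 49.5 to 70.1), beside 29.9% of protein-coding genes. With at least 2 conversions required in each library, 48 members remained (57.8%), beside 8.06%. The small subunit genes had shares close to these, with 36 of 55 genes (65.5%) under both requirements. The share of members therefore stood above the background, and the small subunit share lay inside the members' interval. Conversions moved with the depth of the reference defined above. The Spearman correlation of mean reference depth with mean conversions was 0.488 over the 1529 genes with sites in both libraries and 0.309 over the 50 members among them. The part of depth in the share of genes called was not tested. In the control 5 members (6.02%) had a site, beside 1.21%.

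The calls in members, like those in small subunit genes, were better covered than calls over all protein-coding genes. At least 2 conversions supported 167 of 169 sites (98.8%) in replicate 1 and 130 of 138 (94.2%) in replicate 2. In the small subunit genes the shares were 94.9% and 94.3%, and their median sites had 186 and 49 reads. Over all protein-coding genes the shares were 46.4% and 29.9%. Calls of 1 conversion in 3 reads numbered 3060 and 2949 there, and 2 and 8 in the members. No member site had more than 11 conversions. The median site was covered by 176 reads in replicate 1, with a range of 3 to 1030, and by 55.5 reads in replicate 2, with a range of 3 to 431. The median share of converted reads at sites with at least 2 conversions was 1.83% in replicate 1 and 3.74% in replicate 2. The requirement of 2 conversions sets a lowest possible share at each coverage, so these medians depend on the reads per site. At member sites of at least 150 and under 300 reads the medians were 1.64% and 1.84%, beside 1.66% and 1.61% in other protein-coding genes. These values are a description with no test.

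The most converted members included proteins from several regions of the subunit. The gene rpl8 encodes eL8, a protein added early in assembly (II:2045475-2046442, plus strand). It had 14 conversions at 4 sites in replicate 1 and 25 at 7 sites in replicate 2. The gene rpl501 encodes uL18, which binds 5S ribosomal RNA (I:3410945-3411881, plus strand), and had 26 conversions at 8 sites and 11 at 4 sites. The order of these leading genes was therefore reversed between the libraries, with means of 19.5 ± 7.78 and 18.5 ± 10.6 (SD, n = 2). The gene rpl6, for eL6, had 24 and 7 conversions, and rpl13, for eL13, had 19 and 6. The stalk base protein uL10, from rpp0, had 18 and 8 conversions. One of the P2 stalk protein genes, rpp202, had 14 and 7. In rpp0 the 18 conversions of replicate 1 included 8 at CDS position 852, the largest count at any coding position of the leading genes, and no site of replicate 2 lay beyond position 192.

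Subunit-bridge proteins were also among the leading genes. For eL24 the copy rpl2402 had 20 and 5 conversions, and for eL19 the copy rpl1902 had 12 and 9. For eL41, the shortest ribosomal protein, rpl4101 had 19 and 3. The remaining leading members were rpl4302 with 13 and 8, rpl2002 with 13 and 7 and rpl2101 with 9 and 11. Together the 13 genes with a mean of at least 10 conversions held 39.2% of member conversions in replicate 1 and 37.7% in replicate 2. At least 4 sites in each library were found in rpl8, rpl501, rpl1902 and rpl4302, which is 4.82% of members beside 1.99% of protein-coding genes. Across the 83 members the conversions of the libraries had a Spearman correlation of 0.275 and a Pearson correlation of 0.322. Over the 50 members with sites in both, the Spearman correlation was 0.2. The gene-by-gene order was thus only weakly shared.

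**Figure D1:**
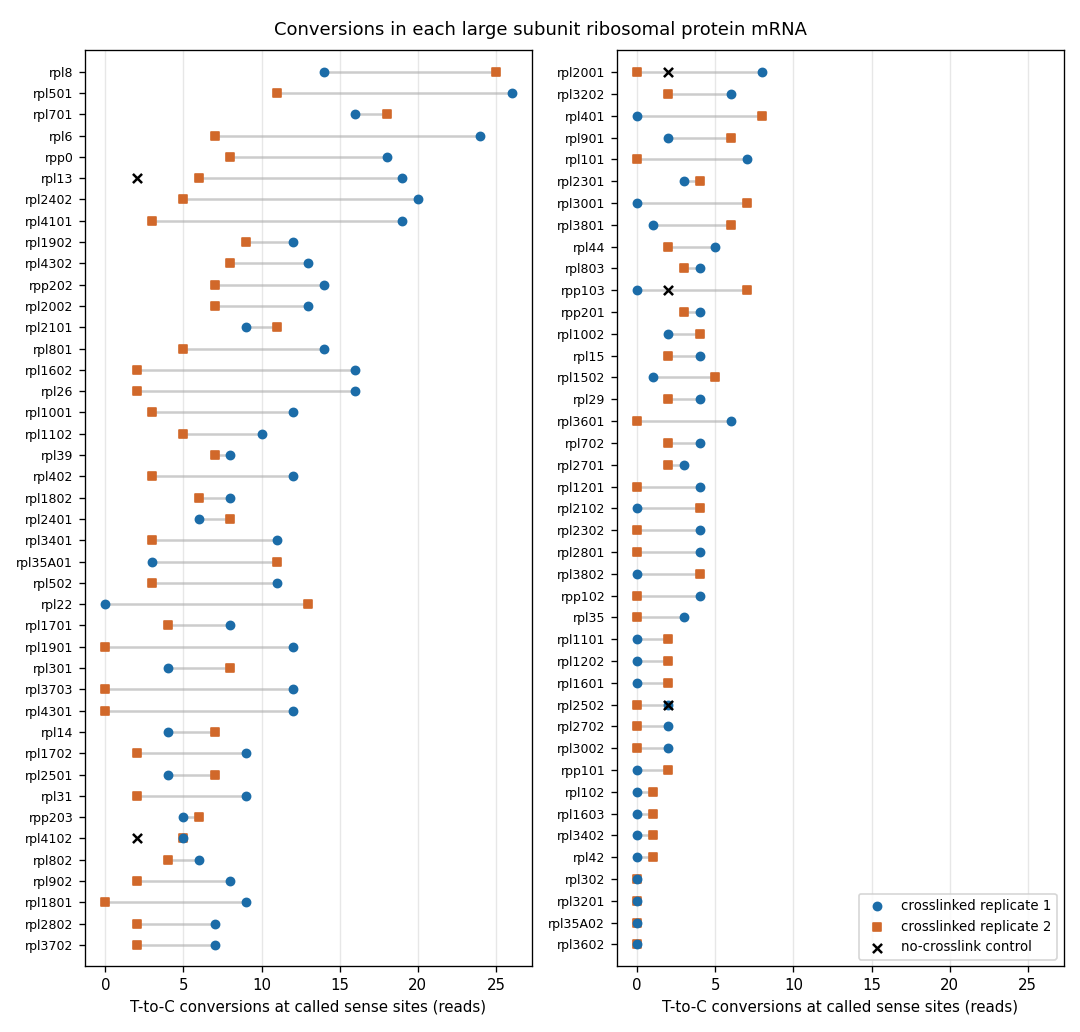
T-to-C conversions (reads) at called sense sites of each of the 83 members, with a circle for crosslinked replicate 1, a square for crosslinked replicate 2 and a cross for the control where it had a site; a grey line joins the crosslinked values. The members are ordered by mean conversions, from rpl8 and rpl501 down to 4 members at 0, and the grey lines are long beside the differences between neighbours.

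The gene rpl701, next after rpl501 in this order, had most of its conversions in an intron. It had 16 conversions in replicate 1 and 18 in replicate 2, of which 10 and 15 lay inside snoR39b, a small nucleolar RNA encoded in its intron. In snoR39b replicate 1 had 10 conversions in 1030 reads at II:1791801. Replicate 2 had 11 in 431 reads at II:1791786 and 4 in 425 reads at II:1791756. The other sites of rpl701 held 6 and 3 conversions, from 2 sites and 1 site. The annotation calls the product an L7-like protein and a subunit of RNase MRP.

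The gene rpl22 had called sites in replicate 2 and no call in replicate 1, and its share of called conversions differed between them. A two-sided Fisher exact test compared each gene's share of nuclear conversions between the crosslinked libraries. It was adjusted by Benjamini and Hochberg over 3376 genes, and it compares these 2 libraries, not conditions. Uncalled positions entered it as 0, so its p does not separate limits of calling from counting error. Of all genes 0.0296% were called higher in replicate 1 and 0.178% higher in replicate 2, with 5.57% at an unadjusted p under 0.05. Of 79 members tested, 19 had an unadjusted p under 0.05 and 1 was called. This was rpl22, called higher in replicate 2, which encodes eL22, an RNA-binding protein of the subunit surface. It had 0 sites in replicate 1 and 13 conversions at 5 coding sites in replicate 2 (adjusted Fisher exact p = 0.00347). The sites had 2 conversions in 55 reads at I:5314941, 2 in 61 at I:5314985, 3 in 65 at I:5314997, 3 in 117 at I:5315030 and 3 in 90 at I:5315279. The first 4 sites lay at CDS positions 34 to 123 of 354 and the last at 316, and no site had more than 3 conversions. The adjusted p ranged from 0.000139 to 0.0941 over the alternatives, and the highest value came from keeping only calls with an authors' p of at most 0.001, which ended the call.

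A larger number of members was called when weak calls were left out. The share of all genes called under such settings is not given here, and the adjustment then covered only genes that kept a call. For rpl401 the Fisher exact p was 0.000317 (0.105 adjusted) at first and 0.000153 (0.0204 adjusted) with at least 2 conversions. With at least 2 conversions per call, rpl401, rpl8, rpp103 and rpl35A01 were called along with rpl22. With at least 20 reads per call, rpl3001 and rpl3801 were added to those. In each of these the share was higher in replicate 2. Under the 20-read minimum rpl401, rpp103 and rpl3001 had 0 conversions in replicate 1 and 8, 7 and 6 in replicate 2. Among calls with an authors' p of at most 0.001, rpl701 was called (adjusted Fisher exact p = 0.0028), with 0 and 11 conversions, all at its snoR39b position.

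At the positions printed first, both libraries had low conversion at moderate coverage. The rpl13 position in codon 188 had 5 conversions in 382 reads and 4 in 138. The rpl13 position in the 3′ UTR had 3 in 128 and 2 in 48. Codon 119 of rpl501 had 4 in 294 and 3 in 105. All 3 positions thus had a higher converted share in replicate 2, on fewer reads. For uL2, a protein next to the peptidyl transferase centre, rpl801 had 4 in 390 and 3 in 133 reads at codon 86, and 3 in 127 and 2 in 40 at codon 39. The start codon of rpl3401 had 4 in 413 and 3 in 157 reads. The remaining positions, in rpl1702, rpl2101 and rpl4302, had 2 or 3 conversions in each library. For rpl1702, which encodes uL22 of the exit tunnel wall, the values were 2 in 66 and 2 in 35 reads.

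The 9 positions were 5.33% of the member sites in replicate 1 and 6.52% in replicate 2. Over all mRNA sites, 64 shared positions were 1.12% and 1.52%. Those sites included 3060 and 2949 calls of 1 conversion in 3 reads, which were rare in the members. The small subunit genes had 4 shared positions, 2.92% and 4.6% of their sites. The converted share was higher in replicate 2 at 9 of 9 member positions and at 202 of all 276 shared nuclear positions. Two-sided Fisher exact tests on converted and unconverted reads, adjusted over the 276 positions, called 0 (0.0%), and 16 (5.8%) had an unadjusted p under 0.05. The lowest unadjusted p among the members was 0.255, at rpl13 codon 188. These tests compare the 2 libraries. Neighbouring positions added few pairs. Of the 112 replicate 2 sites in members that also had a replicate 1 site, 13 lay within 2 nt of a replicate 1 site and 37 within 30 nt, with a median distance of 98.5 nt. In rpl501, for example, replicate 1 sites at CDS positions 596, 598 and 609 lay beside replicate 2 sites at 592 and 611. In rpl6 the sites at positions 154 and 155 were adjacent.

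The control gave 2 conversions at each of 5 member positions. They were in 51 reads at III:2407911 of rpp103, 6 reads at II:2691538 in the 3′ UTR of rpl2502 and 23 reads at I:1438900 of rpl2001. The others were in 28 reads at I:1711797 of rpl13 and in 11 reads at I:2853792 of rpl4102, in its stop codon. The last position was also called in replicate 1, with 3 conversions in 109 reads, so that 2.75% of reads were converted there and 18.2% in the control. The two-sided Fisher exact p was 0.0659, or 0.152 adjusted over 41 positions, of which 22.0% were called. Replicate 2 shared no member position with the control, and 32.4% of the 34 positions that it shared elsewhere were called. The rpl13 control position lay 20 nt past the codon 188 site, which the control did not call.

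Within the genes, sites lay mainly in coding sequence. The coding share was 81.1% in replicate 1 (137 sites, 95% interval 74.5 to 86.3) and 81.9% in replicate 2 (113 sites, 74.6 to 87.4), while 60.4% of the members' T positions are coding. The 3′ UTR held 26 sites (15.4%, 10.7 to 21.6) and 19 sites (13.8%, 8.99 to 20.5), against 24.6% of T positions. Introns held 3 and 4 sites, against 12.8% of T positions, and 5′ UTRs held 3 and 2, against 2.17%. Both libraries thus had a coding share above, and 3′ UTR and intron shares below, the share of T positions, each beyond the counting interval. All protein-coding genes had nearly the same coding share, 79.2% ± 1.27 (SD, n = 2) beside 81.5% ± 0.566 in the members. They had more 5′ UTR sites, 7.33% beside 1.61%, but the members' 5′ UTRs also held a smaller share of their T positions.

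**Figure D2:**
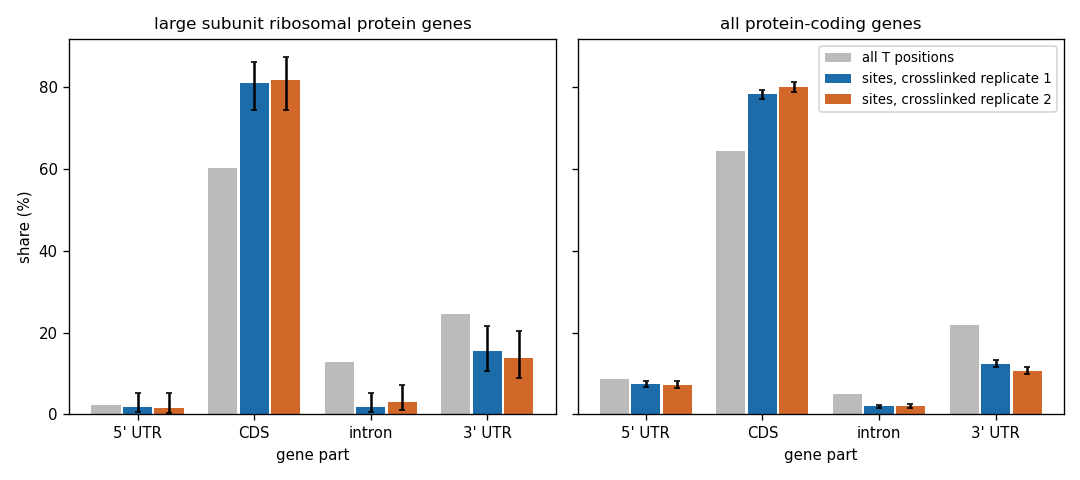
Share (%) of all T positions (grey) and of called sites in crosslinked replicate 1 (blue) and 2 (orange) by gene part, for the members on the left and all protein-coding genes on the right; error bars are 95% Wilson intervals. Coding bars of sites stand above the grey bar and 3′ UTR and intron bars below it in both panels.

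Per 1000 T positions the members had 11.7 coding sites in replicate 1 and 9.64 in replicate 2, where all protein-coding genes had 2.06 and 1.55. In the 3′ UTR they had 5.44 and 3.97, beside 0.951 and 0.604. All 3 intron sites of more than 3 reads were those in snoR39b. Of the other intron sites, rpl702 had 2 conversions in 3 reads at I:3430418, and rpl3801, rpl2501 and rpl42 had 1 in 3. The 5′ UTR sites were better covered. In replicate 1 they were in rpl3401 (4 conversions in 206 reads, I:4093777), rpl3601 (2 in 55, III:506882) and rpp203 (2 in 66, I:3869127). In replicate 2 they were in rpl1001 (3 in 111, II:2081508) and rpl3702 (2 in 13, III:1847861). Each lay within 18 nt of the start codon.

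Along the coding sequence the sites followed the T positions. Each of 5 equal parts of the coding sequence held 18.2% to 23.4% of coding sites in replicate 1 and 15.9% to 24.8% in replicate 2, beside 19.1% to 20.6% of T positions. The last position of the codon held 54.0% and 51.3% of coding sites, beside 50.2% of T positions. The neighbouring bases did differ from those of all coding T positions. An A preceded the converted T at 34.3% of coding sites in replicate 1 (26.9 to 42.6) and at 34.5% in replicate 2 (26.4 to 43.7), beside 17.4% of T positions. A G followed it at 40.1% (32.3 to 48.5) and 43.4% (34.6 to 52.6), beside 28.9%. The trinucleotide ATG centred on the T occurred at 11.7% (7.32 to 18.1) and 18.6% (12.5 to 26.7) of coding sites, beside 5.83% of T positions. Over all protein-coding genes it was 14.2% and 14.3%, beside 7.13%. The preference was therefore also seen outside the members.

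The reference depth of the members was far above the median of all genes with sites in both libraries and near that of the small subunit genes. Over the 50 members with sites in both libraries the median of the mean reference depth was 18500 reads in replicate 1 and 16800 in replicate 2. Over the 36 small subunit genes with sites in both it was 19400 and 19500. Over all 1529 such protein-coding genes it was 158 and 167. Relative to reference depth the members therefore had few conversions, a median of 1.80 per 10000 reference reads (quartiles 1.02 and 4.31) in replicate 1 and 1.55 (0.824 and 3.45) in replicate 2. The medians over all such genes were 79.8 and 68.3. The small subunit genes had 1.77 and 1.46, close to the members. Called sites need at least 1 conversion, so a gene with low reference depth cannot have a low ratio, and this comparison is a description with no test.

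Genes of like reference depth gave closer values. A mean reference depth of at least 10000, a limit set after the values were seen, was found in 91 genes, of which 36 were members, 29 were small subunit genes and 26 were others. The members had a median of 1.24 conversions per 10000 reference reads (quartiles 0.82 and 2.26), the small subunit genes 1.54 and the other genes 1.93 (1.09 and 2.65). The quartile ranges of members and others overlapped. The median number of conversions per library was 7.25 in these members and 15.2 in the other genes. Among the 22 members with at least 2 sites in each library, rpp202, rpl39 and rpl1102 had the lowest ratios, with means of 0.421, 0.786 and 0.82 per 10000. They encode a P2 stalk protein, eL39 of the exit tunnel and uL5, which binds 5S ribosomal RNA. The highest ratios were 5.27 in rpl802, 4.66 in rpl701 and 4.60 in rpl2401, that of rpl701 resting on snoR39b.

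**Figure D3:**
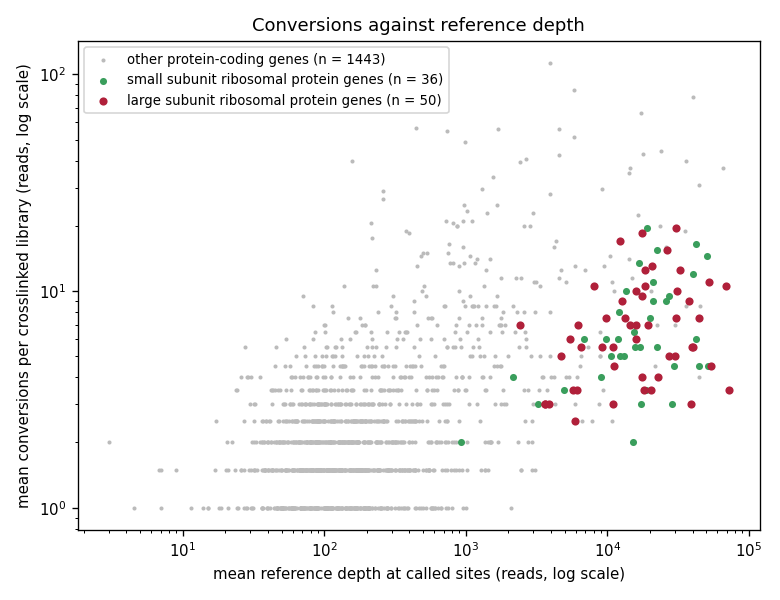
Mean conversions per crosslinked library (reads, log scale) against mean reference depth at the called sites (reads, log scale) for the 1529 protein-coding genes with sites in both libraries, with 50 members in red, 36 small subunit genes in green and 1443 other genes in grey. The red and green points lie together at the right, with conversions inside the range of the grey points.

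The reference depth was not even along the members, and near the start codon it was very low. Sites in the 5′ UTR or the first 50 coding nt, a limit chosen after the values were seen, numbered 17 in 14 members in replicate 1 and 21 in 18 members in replicate 2. Their median reference depth was 87 and 276 reads. At the 123 and 94 coding sites further along it was 20600 and 22300 reads. At these called sites the crosslinked libraries had median reads of 167 near the start and 197 beyond it in replicate 1, and 54 and 60.5 in replicate 2. Reads are listed only at called positions, and a call needs conversions among its reads. These medians therefore do not show how the libraries covered other positions near the start. Of the sites near the start, 16 in each library had a reference depth under 1000, and beyond it 1 in each library had. The 6 start codon sites had reference depths of 28 to 230 reads. At rpl4101 the start codon had 4 conversions in 167 reads on a reference depth of 34. Its 3′ UTR had 5 conversions in 218 reads on a reference depth of 96044.

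The authors' occupancy was accordingly highest next to the start codon. The median was 230 conversions per 10000 reference reads near the start and 1.68 beyond it in replicate 1, and 72.5 and 1.11 in replicate 2. The small subunit genes had 137 and 1.51 in replicate 1, and 79.1 and 1.24 in replicate 2. Over all protein-coding genes the medians were 196 and 70.4 in replicate 1, and 143 and 60.2 in replicate 2. The highest member value was at CDS position 11 of rpl1902, with 2 conversions in 59 reads on a reference depth of 10. The 5′ UTR sites of rpl3601 and rpl1001 followed, with 2 conversions on 12 and 3 on 20. The sites with the highest occupancy thus had few conversions on a very shallow reference. Low values also occurred away from the start. In rpl1902 the reference depth was 992 and 1208 reads at CDS positions 287 and 312, beside 16237 at position 186, 14712 at 480 and 26784 at 552.

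**Figure D4:**
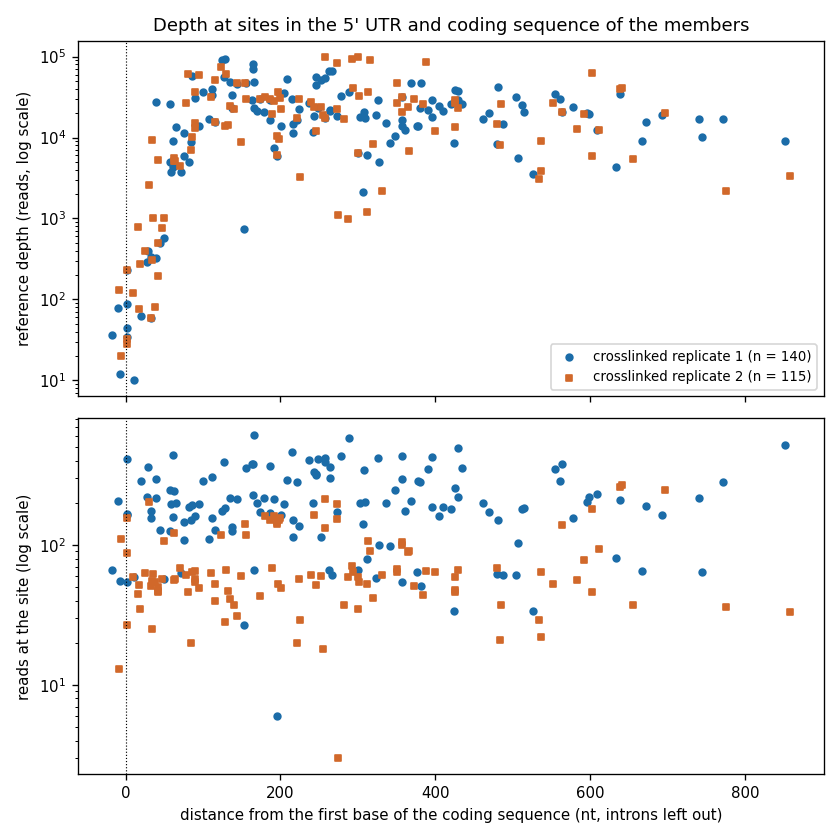
Reference depth (upper panel) and reads in the crosslinked library (lower panel), both on log scales, at each 5′ UTR and coding site of the members by distance in nt from the first coding base with introns left out; circles are the 140 sites of replicate 1 and squares the 115 of replicate 2. The upper panel rises steeply over the first 50 nt from medians of 87 and 276 reads. The lower panel stays level at these called sites, and uncalled positions are not shown.

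Conversions were compared between copies of the same protein gene. Coding identity between copies ranged from 68.8% to 99.6% over the 34 pairs of copies with equal coding length, with a median of 87.5%. Over all 41 pairs of copies, which overlap within triplets, the same copy had more conversions in both libraries in 21 and not in the other 20. These 20 include pairs whose copies had equal counts in a library, such as rpl1901 and rpl1902 with 12 each in replicate 1. The difference between copies was not tested. All copies had sites in both libraries in 10 families, some had in 18 and none had in 5. The largest difference was between rpl701 and rpl702, with 16 and 18 conversions against 4 and 2, and it rests on snoR39b. For uL18, rpl501 had 26 and 11 conversions and rpl502 had 11 and 3. For uL13, rpl1602 had 16 and 2 while rpl1601 had 0 and 2 and rpl1603 had 0 and 1. The libraries thus agreed on the leading copy of uL18 but not on a lead of rpl1602 over rpl1601.

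The uL13, P1 and P2 families were chosen for mention after their values were seen. For uL3, a protein that reaches into the peptidyl transferase centre, rpl301 had 4 and 8 conversions and rpl302 had none. Their coding sequences are 96.3% identical, and 454 T positions of this pair have a 25-nt window that occurs more than once in the genome. Reads there can be assigned to either copy, so the lack of calls in rpl302 is not shown to be a difference between the copies. The smallest difference was between rpl15 with 4 and 2 conversions and rpl1502 with 1 and 5, whose means were equal. Among the P1 stalk genes rpp101 had 0 and 2, rpp102 had 4 and 0 and rpp103 had 0 and 7, so no P1 gene had sites in both libraries. All P2 genes had, with 4 and 3 in rpp201, 14 and 7 in rpp202 and 5 and 6 in rpp203. The 4 members with no site were rpl302, rpl3201, rpl35A02 and rpl3602, and each has a second copy with sites. Reads from identical stretches of copies can be assigned to either. The 25-nt window around the position occurred more than once in the genome at 9 sites in replicate 1 (5.33%) and 7 in replicate 2 (5.07%), beside 7.95% of the members' T positions.

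**Figure D5:**
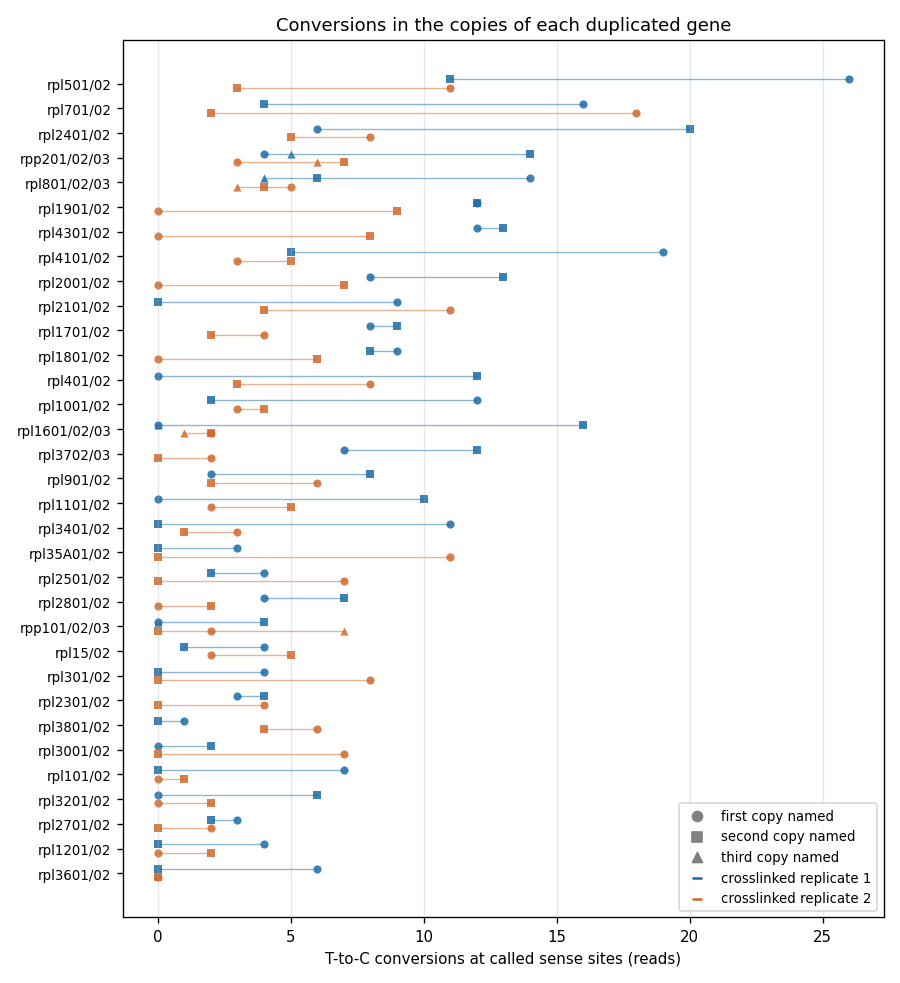
T-to-C conversions (reads) at called sense sites in each copy of the 33 duplicated families, in blue for crosslinked replicate 1 and orange for crosslinked replicate 2; circle, square and triangle are the copies in the order the label names them, joined by a line within a library. In rpl501/02 the circle leads in both libraries, while in rpl15/02 the lead changes.

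Sites were also compared at the same base of the coding sequence in both copies. Among coding sites with a copy of equal coding length, counted once for each such copy, 198 could be compared. The other copy also had a T at 165 of these and a call at 6, which were both sides of 3 positions. Few calls recurred within a gene either, since 5.33% and 6.52% of member sites were shared by the libraries. They were the start codons of rpl4101 and rpl4102, printed above, CDS position 357 of the uL18 genes and CDS position 95 of 2 P2 genes. The uL18 and P2 windows are shown because the copies are called at the same base although their letters differ.
rpl501: ctgacaaataTgagggtgtca
rpl502: ctgataagtaTgagggtgtta
rpp202: acggttggaaTtgaagctgaa
rpp203: actgtcggtaTcgaaagtgag
The uL18 windows differ at 3 of 21 bases and the P2 windows at 7. At CDS position 357 rpl501 was called in both libraries, with 4 and 3 conversions, and rpl502 in replicate 2 with 3. At CDS position 95 rpp202 had 2 conversions in replicate 2 and rpp203 had 3 in replicate 1.

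Assembly factors of the large subunit, which act on its precursors and leave before translation, differed from the ribosomal proteins themselves. Of 32 such genes found in the annotation, 10 had a site in both libraries (31.2%), beside 29.9% of protein-coding genes, and 2 had at least 2 conversions in both (6.25%), beside 8.06%. Both shares were near the background. The gene rlp7, for an L7-like protein whose role in assembly is known from budding yeast, had 25 and 21 conversions. The GTPase gene nog2 had 9 and 7. The other assembly factor genes had up to 8 conversions in a library. The median ratio of those with sites in both libraries was 52.4 and 39.1 conversions per 10000 reference reads, at a median reference depth of 290 and 311 reads.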

How the data were processed

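PAR-CLIP tables of 2 crosslinked libraries and 1 control were used. The authors' deposited counts are converted reads and covering reads for each called position; this reading of single-letter columns rests on the values. The authors' deposited p-value is that of each call. The authors' deposited ratio, headed occ per the file headers and read as an occupancy, is the conversions divided by a whole number, called the reference depth. Bowtie 1.1.1 and SAMtools were used with build ASM294v2, per the submitters' processing notes. Neither the program that called sites, nor its limits, nor its handling of multiply matching reads is given in the sources used here.

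Positions were matched to the RefSeq assembly ASM294v3. All nuclear positions were at a T there (6560, 4742 and 127), so coordinates were taken as equal on chromosomes I, II and III. Mitochondrial and unplaced positions were left out. Sites were assigned to genes by strand and to 5′ UTR, coding sequence, intron or 3′ UTR by the annotation. No site minimum beyond the authors' calls was set. Shares have 95% Wilson intervals. Fisher exact tests were two-sided with Benjamini-Hochberg adjustment over all genes or positions and a threshold of 0.05. Python 3.11.15, pandas 2.3.3, numpy 2.4.6 and scipy 1.17.1 were used. The gene test was tested on simulated data.

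Members and lists were chosen with earlier results of these data known. Named members were those with a shared or control position, the 12 with most mean conversions (13 reached a mean of 10), those with 4 or more sites in each library, the 3 highest and 3 lowest ratios, those past a test, the families with the largest and smallest difference, and those with intron or 5′ UTR sites of at least 2 conversions or with no site. Whether the replicates were separate cultures is not stated in the labels, so spread and p-values may be technical. Alternatives were other minimum calls, leaving out control, overlapping or copied positions, coding exons alone, and each library alone.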

Additional observations from a re-analysis of the deposited data

How the results depend on the processing

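Only called positions are listed, so a member with no call cannot be separated from one with little depth, and conversions of 1 to 11 reads per site limit every comparison of sites. Averaged over the crosslinked libraries, the share of nuclear conversions in members (3.05%) was 3.96% with at least 2 conversions per call, 4.23% with at least 20 reads and 1.83% with an authors' p of at most 0.001. It was 3.40% without positions called in the control, 3.17% without copied 25-nt windows, 2.55% in coding exons alone and 2.95% without the snoR39b positions of rpl701, the last added after seeing the data. The 3′ UTR share (14.6%) was 12.9%, 11.1% and 21.2% under the first 3 of these settings. Members whose share differed between the replicates numbered 1 at first, 5 with at least 2 conversions and 7 with at least 20 reads. The share of all genes called is given above for the first setting only. With an authors' p of at most 0.001, members with a site in both libraries fell from 50 to 13, sites per library from 154 to 38.5 and shared positions from 9 to 1, and the median conversions per 10000 reference reads rose from 1.68 to 2.05. That median was 1.40 with sites of at least 1000 reference reads only, also added after seeing the data. The cause of these changes was not tested. With each crosslinked library alone, the members with a site numbered 64 to 65, the sites 138 to 169, the share of conversions 2.99% to 3.11%, the 3′ UTR share 13.8% to 15.4%, the median conversion 1.83% to 3.74% and the median ratio 1.60 to 1.74. In all, 58 values, those of each library alone included, stayed within their spread or 1.5 times, or kept their side of the threshold. No paired analysis was possible because the control carries no replicate number and no test compared groups with shared numbers.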
